A study of Mus musculus with 51 samples.

Results

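Vehicle-treated dorsal root ganglia (DRG) were set against vehicle-treated hind paw skin, to describe which genes are found in the ganglion and hardly in the skin, and the reverse. The comparison used the 3 DRG and the 3 paw libraries whose titles mark them as controls of day 2, out of 51 libraries in 17 groups. All came from male C57 mice, given as 8 to 12 weeks old, that had vehicle and no drug. The DRG libraries held ganglia of lumbar levels 3 to 5 from both sides, and the paw libraries held punch biopsies of hind paw skin from both sides. The DRG and paw libraries of 8 further groups came from mice given paclitaxel (PTX), a microtubule-stabilising chemotherapy drug, as 2 intraperitoneal injections of 2 mg per kg a day apart. These served only as libraries that the comparison did not use, beside 6 vehicle libraries of lumbar spinal cord. The composition of the vehicle, and whether tissue of several animals was pooled, are not given in the sources used here. The description of the series places the controls at days 1 and 7 after vehicle, and the titles of these 6 libraries say day 2. The titles were followed. No label says that the 3 libraries of a tissue came from separate animals, so p-values measure the spread between libraries, which may be technical.

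A dorsal root ganglion holds the cell bodies of primary sensory neurons, each wrapped in satellite glial cells, with the axons myelinated or ensheathed by Schwann cells. The far ends of those axons lie in skin, muscle and other tissue, while their transcripts are made in the cell body. Glabrous paw skin is a thick stratified epithelium whose keratinocytes move from a dividing basal layer to a cornified surface, changing their keratins on the way. It rests on a collagen-rich dermis with vessels, sweat glands, fat and immune cells, and a punch can reach muscle.

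Read counts scaled to a common total of gene reads (CPM, the usual per-library scaling) are used throughout and are not divided by gene length, so levels are compared between libraries and not between genes. The DRG libraries held 21090846, 21897455 and 21010779 gene reads, and the paw libraries 16194675, 17399313 and 21697763. A count of 3 reads, taken as the detection floor, was worth 0.137 to 0.143 CPM in DRG and 0.138 to 0.185 CPM in paw, and it covers counting error only. Reads that aligned in several places, which were counted to no gene, numbered 57.3 to 58.7 per 100 gene reads in DRG and 113.2 to 156.8 in paw. Paw replicate 2 stood apart with 156.8 such reads and with 44.1 reads outside genes per 100 gene reads, against 23.7 and 21.1 in the other paw libraries. Some genes with near-identical copies had few or no reads: the globin genes Hba-a1, Hba-a2, Hbb-b1 and Hbb-b2 were listed at 0 in all 6 libraries, and Gapdh had 0.664, 1.23 and 0.904 CPM in DRG and 2.47, 2.24 and 1.57 CPM in paw. Whether reads that aligned in several places account for this was not tested.

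The labels were set beside the defining markers of each tissue. These lists were chosen with earlier results of these data known, so they give no independent check. All 24 sensory neuron identity genes were higher in DRG, and all 14 epidermal keratins and all 31 cornified envelope genes that could be tested were higher in paw. For all genes tested the shares were 41.3% in DRG and 40.2% in paw. Skeletal muscle genes were present in both tissues and unevenly so. Their 20 genes together took 141, 3291 and 205 CPM in the DRG libraries, and 43496, 41662 and 16937 CPM in the paw libraries. DRG replicate 2 stood apart in them, with muscle actin Acta1 at 603 CPM against 9.77 and 15.1 CPM in DRG replicates 1 and 3.

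Of 15616 genes tested with edgeR's quasi-likelihood test, 6453 were called higher in DRG (41.3% of the genes tested) and 6276 higher in paw (40.2%), at a Benjamini-Hochberg adjusted p under 0.05. Together 12729 genes were called (81.5%), and 2887 were not (18.5%). The libraries of the tissues did not overlap for 6322 of the genes called in DRG and 6248 of those called in paw. At 4-fold or more, 2569 called genes were higher in DRG and 2323 in paw. The median log2 fold change of all genes tested, DRG over paw, was 0.01. With 81.5% of genes called, a call by itself says little about a gene, and sizes are given beside it. In tissues of mixed cells, fewer cells of a type and less RNA per cell cannot be told apart.

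A gene was described as restricted, between these 2 tissues only, if it was called, reached 10 CPM in each library of its tissue, and had its lowest library there at least 32 times above the highest library of the other tissue. By this rule 490 genes were DRG-restricted (3.14% of the genes tested) and 442 were paw-restricted (2.83%). The rule uses the values themselves, so the values of restricted genes are a description and no test of them is given for it. Just inside the gap of 32 lay Adam23 at 32.26 and Cbln2 at 32.03 in DRG, and just outside it Sema4f at 31.94 and Kcnd3 at 31.77. In paw, Cwh43 at 32.23 and Cd109 at 32.05 lay just inside, and Nkpd1 at 31.69 and Tmem30b at 31.55 just outside.

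The share of reads follows in part from the rule, which asks for 10 CPM in the tissue and a gap to the other. DRG-restricted genes took 12.7%, 11.9% and 12.7% of the reads of the DRG libraries, and 0.122%, 0.122% and 0.106% of those of the paw libraries. Paw-restricted genes took 0.0579%, 0.0596% and 0.0794% of the reads in DRG, and 18.3%, 18.5% and 23.2% in paw. Within their own tissue, the highest library was a median of 1.23 times the lowest for DRG-restricted genes and 1.28 times for paw-restricted genes, and it was over 2 times the lowest for 9 of 490 (1.84%) and 23 of 442 (5.2%). Over all genes at 10 CPM in each library of the tissue, the median was 1.17 for 9620 genes in DRG and 1.16 for 9804 in paw, and 0.728% and 3.06% of them exceeded 2 times.

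**Figure D1:**
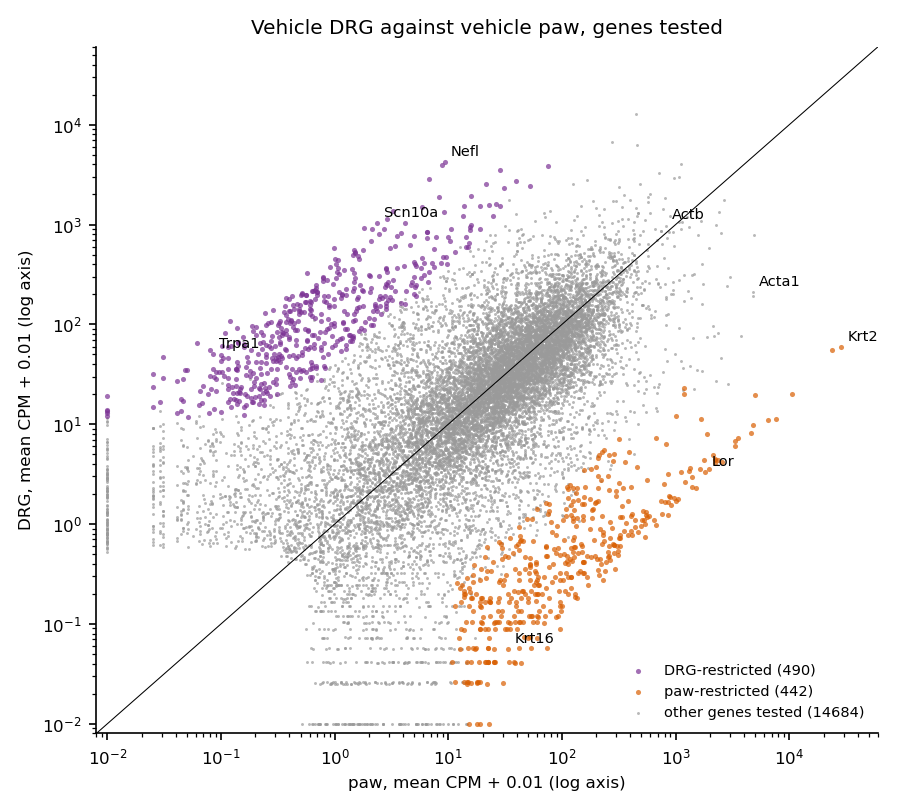
Mean CPM of each gene tested in the vehicle DRG libraries (vertical, log axis) against the vehicle paw libraries (horizontal, log axis), with 0.01 added to both; each point is a gene and the line marks equal values. The 490 DRG-restricted genes lie far above the line and the 442 paw-restricted genes far below it, while Actb lies near it.

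The 8 DRG-restricted genes with the most reads, a count that also grows with gene length, are given first. The neurofilament light chain Nefl, a structural protein of large axons, had 4424, 4085 and 4170 CPM in DRG and 10.3, 10.1 and 7.37 CPM in paw. Its partners Nefm and Nefh followed the same pattern, with DRG means of 3992 and 2846 CPM and paw means of 8.85 and 6.77 CPM. The other 5 of the 8 were the microtubule-associated Mtap1b (now Map1b) and Mtap1a (now Map1a), the motor Kif1a that carries synaptic vesicle precursors along axons, the neuronal tubulin Tubb3, and Ndrg4. Mtap1b had 3306, 4005 and 4225 CPM in DRG and 78.6, 75.7 and 72.2 CPM in paw.

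The largest fold changes belonged to genes with no or almost no reads in paw. Where a tissue held 1 to 3 reads in all, the ratio of CPM is given with its exact 95% interval for counting error, and the fitted fold change depends on the small count that the fit adds. Of the 490, 5 had no read in any paw library: Zfp804a, Lingo2, the sensory neuron transcription factor Pou4f2, Insm2 and Cntn3. Zfp804a had 17.7, 19 and 21 CPM in DRG, which is at least 104-fold above the floor of 3 counts in the shallowest paw library. Pou4f2 had 15.5, 13.1 and 11.7 CPM in DRG, at least 72.3-fold above that floor. Prrxl1 (also Drgx), a homeobox factor of pain-sensing circuits, had 33, 30.4 and 32 CPM in DRG and 0, 0 and 0.0461 CPM in paw, a ratio of 1760 (interval 315 to 69400).

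All 24 genes of the sensory neuron identity list were higher in DRG, with a median log2 fold change of 8.04 (7.92 with Pou4f2 set at its bound), and 19 were DRG-restricted. The peripheral intermediate filament Prph had 1780, 1322 and 1348 CPM in DRG and 7.1, 5.69 and 4.65 CPM in paw (log2 fold change 8.06, SE 0.24, adjusted p = 1.24e-09). Avil, an actin-binding protein that marks sensory neurons, had 1120, 939 and 1045 CPM in DRG and 5.06, 3.97 and 3.46 CPM in paw (8.02, SE 0.21, adjusted p = 5.16e-10). The transcription factor Prdm12, required for nociceptors to form, had 238, 186 and 184 CPM in DRG and 0.556, 0.46 and 0.507 CPM in paw (8.69, SE 0.19). The factors with the smallest differences were Runx1 and Runx3, which also act outside neurons. Runx1 had 79.8, 72.4 and 75 CPM in DRG and 28.8, 31.4 and 25.9 CPM in paw (1.46, SE 0.11, adjusted p = 6.08e-07), and Runx3 had a log2 fold change of 1.48 (SE 0.14).

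Voltage-gated sodium channels carry the action potential, and 3 of them, Scn9a, Scn10a and Scn11a (the genes of NaV1.7, NaV1.8 and NaV1.9), are known for their part in pain. Of 14 subunit genes, 13 were higher in DRG and 1 in paw, with a median log2 fold change of 4.28 and 5 DRG-restricted genes. Scn10a had 773, 1124 and 1210 CPM in DRG and 2.66, 2.59 and 1.84 CPM in paw (8.84, SE 0.27, adjusted p = 2.11e-09). Scn11a had 490, 560 and 609 CPM in DRG and 1.42, 1.55 and 1.47 CPM in paw (8.6, SE 0.16). Scn9a had 202, 200 and 238 CPM in DRG and 0.741, 0.632 and 0.691 CPM in paw (8.33, SE 0.15). No library of these 3 genes overlapped between tissues. The others that were DRG-restricted were Scn1a (log2 fold change 8.03) and Scn8a (7.36), channels of larger and myelinated fibres. Scn3a differed least, at 3.27, 2.37 and 3.38 CPM in DRG and 2.04, 1.78 and 1.71 CPM in paw (0.77, SE 0.23, adjusted p = 0.0111). The gene higher in paw was Scn4a, the channel of skeletal muscle, at 11, 23.2 and 13.1 CPM in DRG and 49.4 CPM in the lowest paw library (-2.61, SE 0.52, adjusted p = 0.00614).

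Channels that sense heat, cold, irritants, acid and touch split by tissue. Of 22 tested, 17 were higher in DRG and 5 in paw, with a median of 4.15. The capsaicin and heat receptor Trpv1 had 160, 115 and 119 CPM in DRG and 0.617, 0.46 and 0.415 CPM in paw (8.11, SE 0.22, adjusted p = 6.52e-10). The irritant receptor Trpa1 had 52, 48.4 and 51.6 CPM in DRG and 0.0617, 0.115 and 0.0461 CPM in paw (9.39, SE 0.2), where its paw levels lay below the floor. Fam38b (Piezo2), the main channel of light touch and proprioception, had 314, 376 and 414 CPM in DRG and 5.99, 6.15 and 5.12 CPM in paw (6.06, SE 0.16). Its relative Fam38a (Piezo1) ran the other way, with 10.9, 18.5 and 13.9 CPM in DRG and 92.9, 104 and 99 CPM in paw (-2.71, SE 0.18, adjusted p = 5.06e-07). The keratinocyte channels Trpv3, Trpv4 and Trpv6 were likewise higher in paw, with log2 fold changes of -5.63, -2.49 and -6.92, and Trpm4 by less (-0.54). Trpv3, a warmth-gated channel of skin, had 0.0948, 0.548 and 0.238 CPM in DRG and 15.5, 14.4 and 17.1 CPM in paw. The cold receptor Trpm8 varied most between DRG libraries, at 9.34, 37.7 and 30.8 CPM, against 0.185, 0 and 0.0922 CPM in paw (8.13, SE 1.02, adjusted p = 0.000768). Kcnk18 (the potassium channel TRESK) had 8.34, 13.2 and 12.5 CPM in DRG and no read in paw, at least 61.3-fold higher in DRG.

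Markers of sensory neuron subtypes were higher in DRG for 25 of 28 genes, with a median of 5.8. Of the peptidergic genes, Calca, which encodes the peptide CGRP, had 1046, 770 and 951 CPM in DRG and 1.91, 2.18 and 1.34 CPM in paw (9.06, SE 0.25, adjusted p = 7.35e-10). Tac1, which encodes substance P, had 235, 143 and 166 CPM in DRG and 0.37, 0.287 and 0.507 CPM in paw (8.88, SE 0.3). Th, which marks low-threshold C fibres, had 131, 93.7 and 103 CPM in DRG and 0.123, 0.115 and 0.0922 CPM in paw (9.95, SE 0.25), and was the subtype marker with the largest fold change. The 3 markers higher in paw have roles outside sensory neurons. Pvalb, of proprioceptors and also of fast muscle, had 59.6, 169 and 68.5 CPM in DRG and 977, 1004 and 476 CPM in paw (-2.99, SE 0.56, adjusted p = 0.00421). Foxp2 (-1.73) and Bmpr1b (-0.67) were the others.

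The Mrgpr receptors, a rodent-expanded family of itch and touch receptors, did not all lie on one side. Of 19 genes 11 could be tested, and 7 were higher in DRG and 3 in paw, with a median of 7.08. The median falls to 4.58 with Mrgpra2b, which had no read in paw, set at its fold against 3 counts. Mrgprd, of nonpeptidergic nociceptors, had 125, 196 and 212 CPM in DRG and 0.988, 0.46 and 0.553 CPM in paw (8.14, SE 0.34, adjusted p = 2.05e-07). Mrgprx1, a receptor of itch neurons, had 12.8, 14.2 and 17.1 CPM in DRG and 0, 0 and 0.0461 CPM in paw, a ratio of 813 (interval 146 to 32100). Mrgprb2, the receptor of connective tissue mast cells, had 0.0948, 0.183 and 0.143 CPM in DRG and 1.3, 1.38 and 2.58 CPM in paw (-3.54, SE 0.46, adjusted p = 5.14e-05). Mrgprb1 (-2.97) and Mrgprf (-0.79) were also higher in paw, and Mrgprh was not called (-0.82, adjusted p = 0.112), though it was without DRG replicate 2. Members of this family resemble each other, so reads could be lost to several alignments.

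Of 7 ATP-gated P2X channels, 6 were higher in DRG and 1 in paw, with a median of 1.65. P2rx3, of nociceptors, had 415, 370 and 429 CPM in DRG and 4.51, 4.08 and 6.73 CPM in paw (6.36, SE 0.21, adjusted p = 3.35e-09) and was DRG-restricted. P2rx1, known from smooth muscle and platelets, had 0.0474, 0.274 and 0.476 CPM in DRG and 33.7, 36.6 and 22.3 CPM in paw (-6.76, SE 0.42, adjusted p = 2.04e-06) and was paw-restricted. The other 5 were higher in DRG by log2 fold changes of 0.87 to 2.33.

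Further families of neuronal genes, defined by symbol and chosen with these results known, are a description and no added support. Of 78 potassium channel subunit genes, 60 were higher in DRG and 14 in paw, with a median of 3.68. Their DRG-restricted members included the A-type channel gene Kcna4, with 25, 22.8 and 23.5 CPM in DRG and 0, 0 and 0.0461 CPM in paw. They also included 4 genes of the KChIP family (Kcnip1, Kcnip2, Kcnip3 and Kcnip4), which modulate the A-type current, with log2 fold changes of 6.92 to 8.35. All 18 glutamate receptor genes tested were higher in DRG, with a median of 5.23 and 6 DRG-restricted. Grik1, a kainate receptor subunit, had 311, 273 and 311 CPM in DRG and 0.741, 1.21 and 0.369 CPM in paw. Of 16 synaptotagmins, sensors and regulators of vesicle release, 13 were higher in DRG and 8 were DRG-restricted. Of 13 GABA-A receptor subunits, 10 were higher in DRG and 5 were DRG-restricted, and the exception in paw was Gabrp. Of 25 calcium channel subunit genes, 18 were higher in DRG and 5 in paw. Cacna1b, the N-type channel that drives transmitter release, had 61.5, 111 and 100 CPM in DRG and 0.123, 0.172 and 0.0922 CPM in paw. Of 12 nicotinic receptor subunits, 8 were higher in DRG. The 4 higher in paw, Chrna1, Chrnb1, Chrnd and Chrne, are those of the muscle receptor, and Chrne was paw-restricted with 0.0474, 0.183 and 0.0952 CPM in DRG and 22.9, 25.5 and 12.4 CPM in paw. Of 33 kinesins, 13 were higher in DRG and 17 in paw, and the axonal motors Kif1a, Kif5a and Kif5c were the DRG-restricted ones. Over all genes tested, 41.3% were higher in DRG and 40.2% in paw.

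Tubulin isotypes, the subunits of the polymer that PTX binds, were higher in DRG for 10 of 14 genes, with a median of 2.03. Tubb3 had 2775, 2221 and 2306 CPM in DRG and 51, 47.2 and 60 CPM in paw (5.59, SE 0.18, adjusted p = 1.66e-09). Tubb4 (now Tubb4a) had 927, 681 and 707 CPM in DRG and 4.94, 5.35 and 4.7 CPM in paw (7.33, SE 0.19). Higher in paw were Tuba8 (-4.22), Tuba1c (-3.88), Tubb6 (-1.34) and Tuba4a (-0.77). Tubb6 had 14, 13.2 and 12.6 CPM in DRG and 37.7, 34.7 and 33.2 CPM in paw.

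Glial genes were mostly higher in DRG, and few were restricted. Of 13 satellite glia genes, 11 were higher in DRG and 2 in paw, with a median of 2.38. Fabp7, a fatty acid carrier of these glia, had 216, 175 and 204 CPM in DRG and 0.864, 0.69 and 0.507 CPM in paw (8.26, SE 0.18, adjusted p = 3.27e-10). The potassium channel Kcnj10, with which satellite cells buffer potassium, had 101, 95.2 and 107 CPM in DRG and 1.05, 1.03 and 0.645 CPM in paw (6.88, SE 0.17). The gap junction gene Gja1 was higher in paw, at 32.9, 30.5 and 29.7 CPM in DRG and 541, 589 and 641 CPM in paw (-4.19, SE 0.12), and so was Dbi (-1.28).

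Of 13 myelinating Schwann cell genes, 12 were higher in DRG, with a median of 4.27, and none was restricted. Mbp, a structural protein of compact myelin, had 6322, 7319 and 6257 CPM in DRG and 274, 287 and 265 CPM in paw (4.65, SE 0.15). Fa2h, a lipid hydroxylase that myelin and keratinocytes share, was the exception, at 260, 303 and 249 CPM in DRG and 353, 366 and 264 CPM in paw (-0.21, SE 0.14, adjusted p = 0.196). Central glia left little trace in either tissue. Their marker Mog, a surface protein of oligodendrocyte myelin, had 0.0474, 0 and 0 CPM in DRG and 0.123, 0.23 and 0.138 CPM in paw. In the oligodendrocyte and astrocyte list 3 of 5 tested genes were higher in DRG, among them Gfap at 8.2, 5.21 and 3.66 CPM in DRG and 0.37, 0.805 and 0.184 CPM in paw (3.74, SE 0.49).

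In paw, the keratins of the epidermis set the scale. All 14 epidermal keratins tested were higher in paw, with a median log2 fold change of -8.66, and 13 were paw-restricted. Krt2, of the uppermost living layers, had 49.4, 46 and 81.6 CPM in DRG and 26259, 25993 and 33752 CPM in paw (-8.86, SE 0.32, adjusted p = 1.08e-08). Krt10, of all suprabasal layers, had 45.3, 42.2 and 76.9 CPM in DRG and 20166, 21760 and 29177 CPM in paw (-8.69, SE 0.35). Both were somewhat higher in DRG replicate 3 than in the other DRG libraries. Krt14, of the basal layer, had 3.32, 3.38 and 6.38 CPM in DRG and 2252, 1974 and 2410 CPM in paw (-8.92, SE 0.34). Krt9, the keratin of palm and sole epidermis, had 3.18, 2.47 and 5.05 CPM in DRG and 2273, 1911 and 1745 CPM in paw (-9.05, SE 0.33). Krt6b, a keratin of stressed epidermis, was the epidermal keratin outside the restricted set, with 0.19, 0.0457 and 0.19 CPM in DRG and 3.89, 2.24 and 31.4 CPM in paw (-6.37, SE 1.79, adjusted p = 0.0254), its paw value rests on replicate 3, and its call was lost without DRG replicate 1 or DRG replicate 3.

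The cornified envelope is the protein shell that replaces the membrane of dead keratinocytes. All 31 of its tested genes were higher in paw, with a median of -8.77, and 30 were paw-restricted. Lor, its main protein, had 3.18, 2.51 and 4.19 CPM in DRG and 1584, 1927 and 1974 CPM in paw (-9.05, SE 0.26, adjusted p = 8.73e-10). Hrnr had 9.91, 9.32 and 14.6 CPM in DRG and 6516, 6868 and 9590 CPM in paw (-9.34, SE 0.31). The crosslinking enzymes Tgm1 and Tgm3 had log2 fold changes of -8.19 and -8.41, and Tgm5 had the smallest of the list at -5.42. Sprr4, at 0, 0 and 0.0952 CPM in DRG and 1.61, 3.16 and 4.29 CPM in paw, was the gene of the list below the 10 CPM that the rule asks for. Lce and Sprr genes are near copies of each other, so their counts are uncertain.

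Cell contacts and transcription factors of the epidermis were less uniform. Of 18 genes of desmosomes and of basement membrane anchorage, 15 were higher in paw and 2 in DRG, with a median of -7.47 and 11 paw-restricted. Dsp, which ties keratin to the desmosome, had 7.54, 6.99 and 15.2 CPM in DRG and 3987, 4497 and 5815 CPM in paw (-8.84, SE 0.44, adjusted p = 6.56e-07). The anchorage genes that glia and neurons also use went the other way or were not called. Dst had 872, 1170 and 1147 CPM in DRG and 458, 472 and 356 CPM in paw (1.37, SE 0.17, adjusted p = 2.9e-05), Itgb4 a log2 fold change of 0.47 (adjusted p = 0.00329), and Itga6 one of -0.41 (adjusted p = 0.188).

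All 20 epidermal transcription factors were higher in paw, with a median of -6.42, and 10 were paw-restricted. Trp63, the regulator on which stratified epithelia depend, had 1.38, 1.64 and 2.09 CPM in DRG and 188, 193 and 237 CPM in paw (-6.85, SE 0.18, adjusted p = 5.38e-10). Ovol1 (-8.83) and Tcfap2b (now Tfap2b; -8.7) had the largest fold changes of the list. Hopx had the smallest, at 148, 126 and 139 CPM in DRG and 193, 207 and 248 CPM in paw (-0.58, SE 0.12).

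Keratinocyte families defined by symbol, again chosen with the results known, are given next. All 10 kallikreins, proteases that loosen the cell contacts of the surface, were higher in paw, with 6 restricted. All 7 lipoxygenase genes were higher in paw, with 4 restricted, among them Alox12b and Aloxe3, which make the lipid barrier. Of 18 clade B serpins, 13 were higher in paw with 9 restricted, and Serpinb1a, Serpinb1b, Serpinb6a, Serpinb6b and Serpinb9 were higher in DRG. All 5 genes with the older interleukin 1 family symbols Il1f were higher in paw. The receptor antagonist Il1f5 had 0.284, 0.411 and 0.333 CPM in DRG and 293, 263 and 315 CPM in paw. Of 6 beta connexins, the 5 other than Gjb1, the connexin of myelin, were higher in paw. Of 16 claudins, of tight junctions, 6 were higher in DRG, 7 in paw and 3 not called, and 3 were paw-restricted. The calls were split much as over all genes tested (41.3% higher in DRG, 40.2% in paw and 18.5% not called).

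Hair and nail keratins were all higher in paw, 21 of 21 tested, with a median of -8.53, or -6.95 with the 4 genes that had no read in DRG set at their fold against 3 counts. They varied between paw libraries far more than epidermal keratins did. Krt71, of the inner root sheath, had 0.237, 0.228 and 0.381 CPM in DRG and 35.8, 190 and 109 CPM in paw (-8.54, SE 1.06, adjusted p = 0.00121). The list summed to 7.3, 6.53 and 7.47 CPM in DRG and to 220, 748 and 460 CPM in paw, so paw replicate 2 was highest in it. Krt31, of the hair cortex, had no read in DRG and 11, 24.5 and 17.7 CPM in paw, at least 124-fold higher in paw. All 5 simple epithelial keratins tested were also higher in paw, among them Krt8 at 0.0948, 0.137 and 0.238 CPM in DRG and 12.3, 12.3 and 13.8 CPM in paw (-6.24, SE 0.26). Sweat gland and Merkel cell genes were mixed. Of 8 tested, 6 were higher in paw and 2 in DRG, with a median of -1.79 and a range of -9.41 to 6.42. The lowest of them was Aqp5, the water channel of sweat glands. It had 0.0948, 0.32 and 0.571 CPM in DRG and 238, 236 and 236 CPM in paw (-9.41, SE 0.28, adjusted p = 4.45e-09).

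The dermis differed from the ganglion by degree. Of 18 fibroblast and matrix genes, 16 were higher in paw and 2 in DRG, with a median of -1.59 and 1 restricted gene. Col1a1, of the main fibrillar collagen, had 435, 564 and 376 CPM in DRG and 708, 832 and 852 CPM in paw (-0.74, SE 0.16, adjusted p = 0.00194). Dpt, a dermal matrix protein, was the restricted gene, at 0.901, 2.42 and 1.86 CPM in DRG and 130, 125 and 162 CPM in paw (-6.26, SE 0.29). Sparc was higher in DRG, at 2884, 3233 and 2804 CPM in DRG and 1009, 1016 and 1189 CPM in paw (1.54, SE 0.13), and so was Col14a1 (1.48).

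Lists of other tissue that a biopsy can hold separated the groups unevenly. Of 10 cartilage, bone and tendon genes tested, 4 were higher in paw, 3 in DRG and 3 not called (median 0.18). Of 5 pigment cell genes tested, 3 were higher in paw, 1 in DRG and 1 not called (median -0.79). For all genes tested the shares were 40.2% in paw, 41.3% in DRG and 18.5% not called. All 10 fat cell genes were higher in paw, with a median of -4.86, but Plin4 lost its call under the replicate block and without DRG replicate 3, paw replicate 1 or paw replicate 2. Adipoq had 0.474, 1.55 and 0.666 CPM in DRG and 37.5, 39 and 30.1 CPM in paw (-5.23, SE 0.33, adjusted p = 1.6e-06). Of 10 endothelial genes 9 were higher in paw (median -1.17), and of 8 pericyte and smooth muscle genes 7 were (median -2.99). Of 20 skeletal muscle genes, 10 were called higher in paw and 10 were not called, although the median was -4.82. Without DRG replicate 2 all 20 were called (median -8.32), and without paw replicate 2 only 1 was (median -4.69). Acta1 itself was not called, at 9.77, 603 and 15.1 CPM in DRG and 6663, 5352 and 2306 CPM in paw (-4.46, SE 2.05, adjusted p = 0.106). Its libraries did not overlap between tissues. Without DRG replicate 2, which leaves a looser rule, the paw-restricted genes rose to 552, and 18 of the 20 muscle genes were among the 110 added.

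Of 12 macrophage genes, 7 were higher in paw, 1 in DRG and 4 not called (median -1.03). The shares over all genes tested were 40.2% in paw, 41.3% in DRG and 18.5% not called. The mannose receptor Mrc1 had 8.72, 21.7 and 16.8 CPM in DRG and 50.1, 41 and 69.7 CPM in paw (-1.71, SE 0.37, adjusted p = 0.00653), and Cx3cr1 was the gene higher in DRG (1.1, SE 0.34), a call lost without paw replicate 1 and in the fit on all 30 libraries. The Langerhans cell lectin Cd207 had 0, 0.137 and 0 CPM in DRG and 8.15, 10.4 and 15.4 CPM in paw, where the ratio of paw to DRG was 250 (interval 85.2 to 1220). Of 6 mast cell genes 5 were higher in paw, and Kit was higher in DRG, at 97.2, 108 and 114 CPM in DRG and 65.4, 61 and 61.2 CPM in paw (0.83, SE 0.09). Genes of neutrophils and red cell precursors stood higher in DRG for 4 of 6 genes. Ngp, a neutrophil granule gene, had 28, 38.5 and 24.2 CPM in DRG and 0, 0.23 and 0.277 CPM in paw (7.4, SE 0.41, adjusted p = 5.95e-07) and was DRG-restricted. Alas2, of haem synthesis in red cell precursors, had 10.3, 15.8 and 11 CPM in DRG and 1.42, 0.92 and 1.66 CPM in paw (3.26, SE 0.25). Whether other tissue in the ganglion samples carried these transcripts was not tested.

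**Figure D2:**
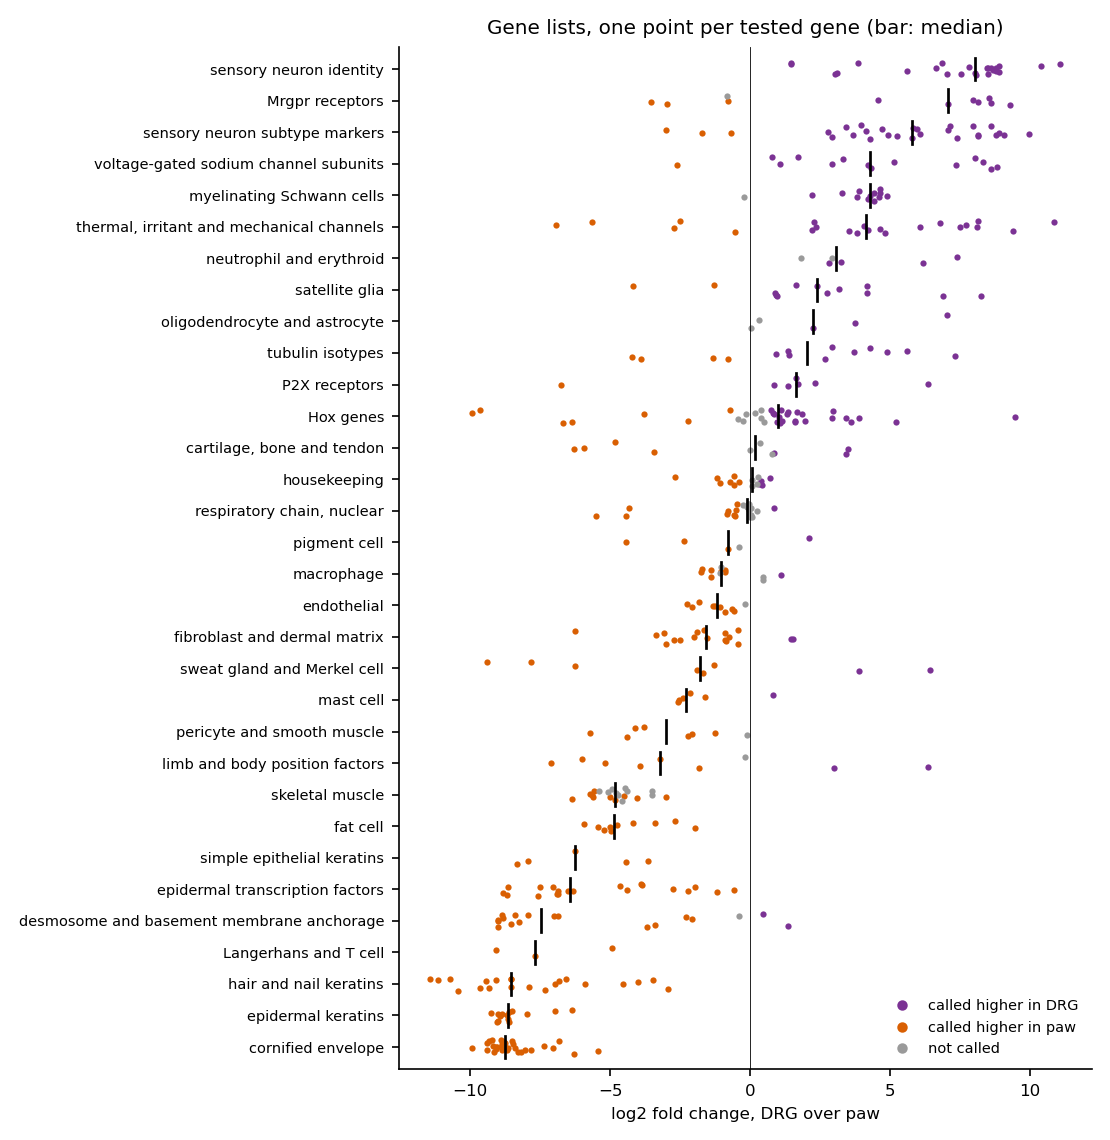
Log2 fold change (horizontal, DRG over paw) of each tested gene of 32 lists, ordered by list median (black bar); purple points were called higher in DRG, orange points higher in paw, and grey points were not called. Sensory neuron identity genes lie highest with a median of 8.04, and cornified envelope genes lowest with a median of -8.77.

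Lists of genes that every cell uses had medians close to 0. So had all genes tested after scaling (0.01), so this is no trait of these lists. Of all genes tested, 41.3% were higher in DRG, 40.2% in paw and 18.5% not called. Of 22 nuclear genes of the respiratory chain, 12 were not called, 9 were higher in paw and 1 in DRG, with a median of -0.1. The largest of these differences belonged to the muscle isoforms Cox8b (-5.5), Cox6a2 (-4.42) and Cox7a1 (-4.33), which move with the muscle genes above. Cox6a2 lost its call without any 1 library other than DRG replicate 2. Of 15 housekeeping genes, 4 were higher in DRG, 7 in paw and 4 not called, with a median of 0.06. Hprt had 140, 117 and 145 CPM in DRG and 118, 120 and 163 CPM in paw (0.07, SE 0.14, adjusted p = 0.675). Rplp0, a ribosomal protein gene, departed most, with at most 135 CPM in DRG and at least 777 CPM in paw (-2.69, SE 0.13).

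Hox genes encode position along the body axis, with low paralog numbers acting toward the head and high ones toward the tail and the ends of limbs. Of 36 tested, 22 were higher in DRG, 7 in paw and 7 were not called. For all genes tested the shares were 41.3% in DRG, 40.2% in paw and 18.5% not called. A division by paralog number, drawn after the values were seen, gave 21 of 29 genes numbered 1 to 10 higher in DRG and 1, Hoxa9, higher in paw (median 1.11). Of 7 genes numbered 11 to 13, 6 were higher in paw and 1, Hoxd11, higher in DRG (median -6.36). Hoxd13, which patterns digits, had 0, 0 and 0.0476 CPM in DRG and 16.7, 17.2 and 21.1 CPM in paw, where the ratio of paw to DRG was 1190 (interval 213 to 47000). Hoxa13 had no read in DRG and 7.22, 7.47 and 4.47 CPM in paw, at least 44.7-fold higher in paw. At the other end, Hoxd1, known from nociceptors in mouse, had 18.2, 14.2 and 17.3 CPM in DRG and 0, 0.0575 and 0 CPM in paw, a ratio of 913 (interval 164 to 36100).

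Of 9 other limb and body position factors tested, 2 were higher in DRG, 6 in paw and 1 was not called, with a median of -3.2. The shares over all genes tested were 41.3%, 40.2% and 18.5%. Tbx4, the hindlimb factor, had 0.284, 0.365 and 0.238 CPM in DRG and 12, 10.9 and 11.7 CPM in paw (-5.19, SE 0.22, adjusted p = 1.1e-08). En1, of ventral limb ectoderm and sweat glands, had 0, 0.137 and 0.143 CPM in DRG and 15.4, 13.9 and 14 CPM in paw (-7.11, SE 0.35). Shh, a secreted patterning signal, was DRG-restricted at 18, 17.2 and 17.7 CPM in DRG and 0.309, 0.287 and 0.0922 CPM in paw (6.36, SE 0.26).

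**Figure D3:**
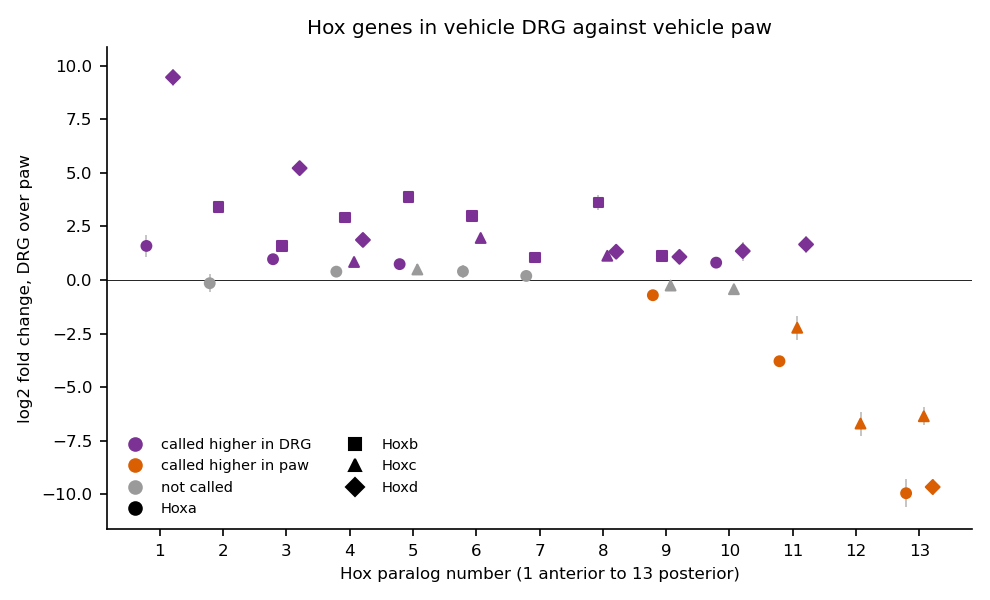
Log2 fold change (vertical, DRG over paw) of the 36 tested Hox genes by paralog number (horizontal), with marker shape for the cluster, colour for the call and grey bars for 1 standard error. Genes numbered 1 to 10 lie mostly above 0, and those numbered 11 to 13 below it apart from Hoxd11.

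The skin supplies growth factors to the neurons, and the neurons release peptides in the skin. The 37 ligand and receptor pairs were chosen from textbook knowledge, with earlier results of these data known. Some share a gene, such as Gdnf or Ntrk2, so the pairs are not independent. Of them, 12 had the ligand higher in paw and the receptor higher in DRG. A further 6 had the ligand higher in DRG and the receptor higher in paw. Among all genes tested, 41.3% were higher in DRG and 40.2% in paw. Both genes were higher in DRG in 4 pairs and both in paw in 4. In 9 pairs the ligand was too low to be tested, and in 2 a gene was not called. Each gene was compared by itself, and a pair is no test of signalling.

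Growth factor ligands made up much of the first kind. Neurturin (Nrtn) had 0.19, 0.183 and 0.143 CPM in DRG and 4.75, 5.8 and 4.93 CPM in paw (-4.8, SE 0.28), and its receptor Gfra2 had 262, 204 and 228 CPM in DRG and 10.1, 9.48 and 8.39 CPM in paw (4.7, SE 0.14). Gdnf (-2.87), Ntf3 (-1.87) and Ntf5 (-4.26) were likewise higher in paw, and their receptors Gfra1 (3.95), Ret (5.64), Ntrk3 (2.37) and Ntrk2 (1.66) in DRG. Bdnf was the neurotrophin higher in DRG (1.14, SE 0.12), with its receptor Ntrk2. Sema3a, which repels sensory axons, had 0.142, 0.183 and 0.0952 CPM in DRG and 7.97, 10.2 and 14 CPM in paw (-6.14, SE 0.35), and its receptor Nrp1 was also higher in paw (-0.35).

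Apart from Il33, the ligands of the second kind were peptides of sensory neurons. Calca is given above; the subunits of its receptor were higher in paw. Calcrl had 7.25, 8.13 and 7.19 CPM in DRG and 35.3, 39.5 and 33.7 CPM in paw (-2.2, SE 0.12, adjusted p = 6.21e-08), and Ramp1 had 1.52, 4.29 and 1.86 CPM in DRG and 60.6, 58.7 and 37.6 CPM in paw (-4.28, SE 0.42). The substance P receptor Tacr1 had 0.711, 0.548 and 0.571 CPM in DRG and 8.95, 12.4 and 11.2 CPM in paw (-4.08, SE 0.22). Adcyap1 (8.77) and Nppb (5.24) were higher in DRG, and their receptors Adcyap1r1 (-1.58) and Npr1 (-2.03) in paw. Il33 (0.58), an alarm cytokine, was slightly higher in DRG, and its receptor Il1rl1 (-1.35) in paw. The call of Il33 was lost in the fit on all 30 libraries. Galanin and somatostatin differed from these, since Gal and Galr1, and Sst and Sstr2, were each higher in DRG. Galr1 (interval of the ratio 18.7 to 4230) and Sst (19.2 to 586) rest on 1 and 2 reads in paw.

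Of the remaining receptors, several were higher in DRG. Il31ra, the receptor of the itch cytokine interleukin 31, had 16.8, 26.4 and 26.2 CPM in DRG and 1.05, 0.977 and 0.415 CPM in paw (4.93, SE 0.32, adjusted p = 9.2e-07), while Il31 itself was listed at 0 in all 6 libraries. The opioid receptor genes Oprd1 (5.34), Oprk1 and Oprm1 were higher in DRG. Oprm1 was low even there, at 0.853, 0.731 and 0.619 CPM in DRG and 0.0617, 0 and 0 CPM in paw, a ratio of 40.6 (interval 6.94 to 1640). Penk, the enkephalin precursor, was not called, at 29.2, 13.7 and 11.2 CPM in DRG and 17.3, 14.7 and 16.6 CPM in paw (0.22, adjusted p = 0.602), with replicate 1 apart in DRG. Crlf2 (0.44) and Nrp2 (0.71), receptors of thymic stromal lymphopoietin and semaphorin 3F, were called higher in DRG, but Crlf2 lost its call without any 1 of 4 of the 6 libraries, with DESeq2 and with other scalings, and Nrp2 without any 1 of 4 libraries.

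**Figure D4:**
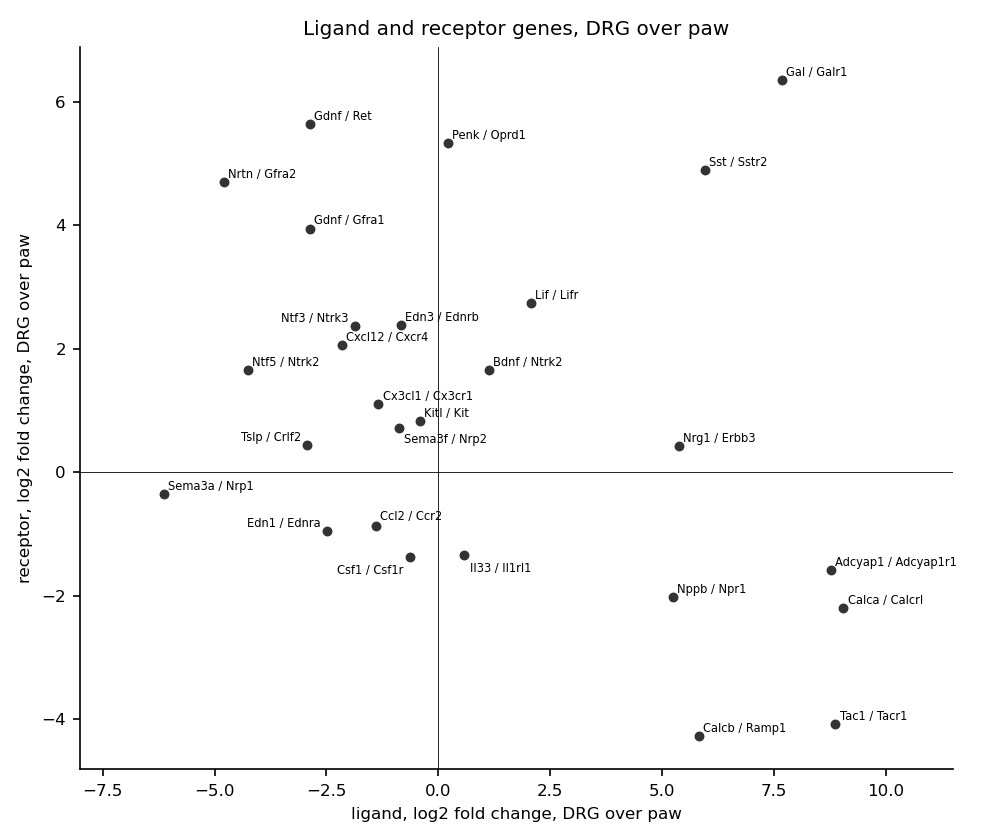
Log2 fold change (DRG over paw) of the ligand (horizontal) and of the receptor (vertical) for pairs whose genes could both be tested, as far as they are reported here; each point is a pair, named as ligand / receptor. Nrtn and Gfra2 lie at upper left at -4.8 and 4.7, Tac1 and Tacr1 at lower right at 8.88 and -4.08, and Bdnf, Lif, Gal and Sst with their receptors at upper right.

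The PTX libraries shared no library with the vehicle comparison, and both tissues in them had the drug. Of genes called in vehicle, 87.2% to 90.7% were called in the same direction on each of days 2, 7, 22 and 35, and 0 to 8 genes a day in the opposite one. The level and the gap of the rule were met again on days 2, 7, 22 and 35 by 371, 410, 434 and 422 of the 490 DRG-restricted genes. Of the 442 paw-restricted genes 383, 344, 336 and 372 met them. Over all 24 PTX libraries at once, 488 of 490 and 438 of 442 kept the tissues apart without overlap, and 296 and 282 met the full rule. In the vehicle libraries, 6322 of the 6453 genes called in DRG and 6248 of the 6276 called in paw did not overlap. No such share over all called genes was computed for the PTX libraries. The lack of overlap there cannot be called particular to restricted genes, which were chosen for a gap.

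DRG-restricted transcripts were not wholly absent from paw, and their trace level moved as a block. In the vehicle paw libraries these genes stood at a median of 0.667%, 0.672% and 0.564% of their DRG mean. In 10 PTX paw libraries the median was 0.455% to 0.995%, while PTX paw replicate 3 of day 2 had 1.92% and replicate 1 of day 35 had 1.5%. Scn10a, for example, reached 12.7 CPM at most in PTX paw libraries, against a median of 2.41 CPM. Without those 2 libraries, an alternative chosen after seeing the data, 475 DRG-restricted genes met the rule on day 2 and 460 on day 35, and 368 over all days. Paw-restricted genes stood at a median of 0.279%, 0.307% and 0.468% of their paw mean in the vehicle DRG libraries, and at 0.159% to 0.557% in the PTX DRG libraries. The source of these trace levels was not tested.

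Spinal cord, the other end of the sensory axon, served to tell neuronal genes in general from those of the ganglion. Of its 6 vehicle libraries, 2 held ganglion genes. Replicates 2 and 3 of day 1 held Scn10a at 245 and 222 CPM, Mrgprd at 17 and 19.5 CPM and Prdm12 at 86.7 and 81.2 CPM. The other 4 cord libraries held 0.127 to 0.637 CPM of Scn10a, at most 0.0765 CPM of Mrgprd and at most 0.268 CPM of Prdm12. The oligodendrocyte gene Mog stood at 154 to 254 CPM in all 6. Values are therefore given with all 6 and, as an alternative chosen after seeing the data, without those 2.

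Most DRG-restricted genes were also read in cord. In all 6 cord libraries 408 of 490 (83.3%) reached 10 CPM, and the same number did in the 4 libraries. Of all genes tested 62.2% reached it in the 6 libraries, and of the 9620 at 10 CPM in each DRG library 92.6% did, so the share of DRG-restricted genes was below that of genes at this level in DRG. Snap25, of the vesicle fusion machinery, averaged 1364 CPM in DRG and 3.23 CPM in paw, and had 3085 to 3983 CPM in the 4 cord libraries. Genes at least 32 times lower in every cord library than in any DRG library numbered 0 with 6 libraries and 27 (5.51%) with 4. No share over all genes was computed for this count. The cord libraries left out were picked for holding ganglion genes such as Scn10a, Mrgprd and Prdm12. Low cord levels of such genes follow in part from that choice. The 27 held genes of several kinds. Scn10a, Avil, Scn11a, P2rx3, Scn9a, Prdm12, Mrgprd, Accn3 (now Asic3), Trpv1, Trpa1 and Mrgprx1 were among them, as were Pirt, a regulator of Trpv1, the homeobox genes Tlx2 and Isl2, the serotonin receptor subunit Htr3b, Ngfr, Tusc5, Ppp1r1c, Tmem72 and Bet3l. Slc17a7, a vesicular glutamate transporter, averaged 220 CPM in DRG and 0.661 CPM in paw, with 0.142 to 0.322 CPM in the 4 cord libraries. Of the paw-restricted genes, 15 (3.39%) reached 10 CPM in all 6 cord libraries, and 354 (80.1%) were at least 32 times lower in cord than in paw. With the 4 libraries, 18 (4.07%) reached 10 CPM and 362 (81.9%) were at least 32 times lower. Here too, no share over all genes was computed for the genes 32 times lower in cord.

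**Figure D5:**
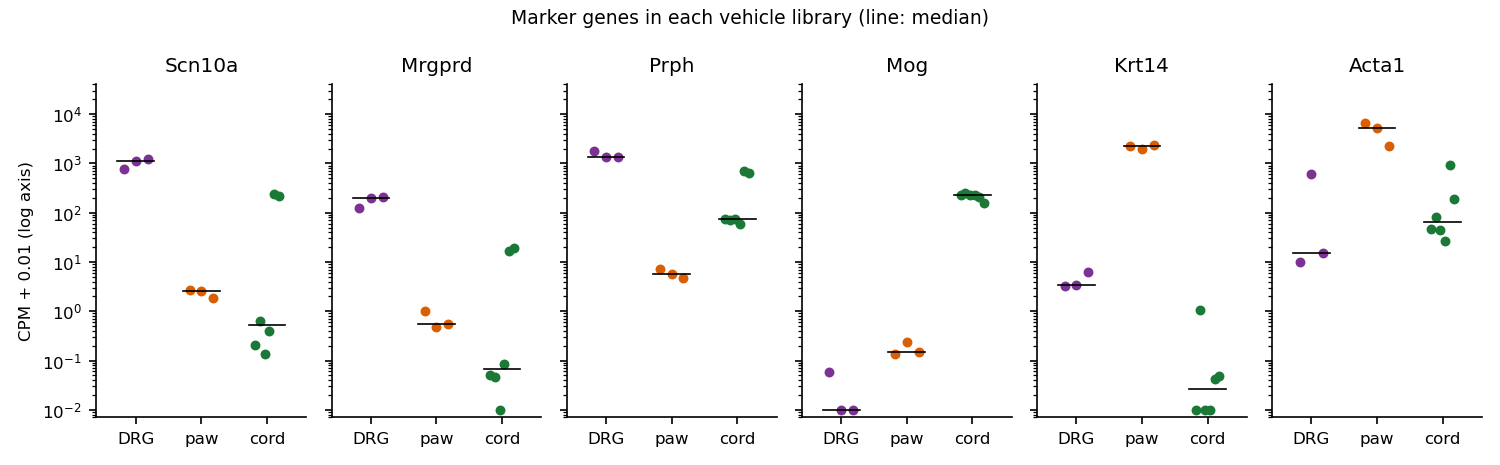
CPM plus 0.01 (vertical, log axis) of 6 marker genes in each vehicle library of DRG (purple), paw (orange) and spinal cord (green), with a line at the median. Scn10a and Mrgprd are high in DRG and in 2 of the 6 cord libraries, and Mog is high in all 6 cord libraries. Acta1 is highest in paw, and stands out within DRG in replicate 2 and within cord in replicate 2 of day 1 (925 CPM).

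Neighbouring genes were counted in runs of 3 or more, and shorter runs were not counted. In the RefSeq gene order, 488 DRG-restricted and 439 paw-restricted genes could be placed among 22329 genes of the table. No run of 3 or more neighbouring DRG-restricted genes was found, against 20 runs of paw-restricted genes that held 80 genes (18.2% of those placed). The longest run had 14 genes, the Lce genes with Kprp and 1 unnamed gene model. Other runs held Crnn, Flg2, Hrnr and Rptn, or Krt9, Krt14, Krt16 and Krt17, or Il1f8, Il1f9, Il1f6 and Il1f5, or the desmocollins Dsc1, Dsc2 and Dsc3. Many of these are neighbouring duplicates that share sequence, so they are not independent of each other.

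Promoters are shown for the most read restricted genes of each tissue that had an entry, because these genes move together by tissue. The sequences are RefSeq's, build GRCm38.p6, 5′ to 3′ on the strand of the gene, and cover the 60 bases before the listed start. Capitals mark the letters TATAAA, searched on the strand of the gene in the 50 bases before the start, as a TATA box reads. Map1b lies at chr13:99516603-99516662 on the minus strand, Ndrg4 at chr8:95676914-95676973 on the plus strand and Map1a at chr2:121289542-121289601 on the plus strand. Krt2 lies at chr15:101818170-101818229 on the minus strand, Krt10 at chr11:99389365-99389424 on the minus strand and Hrnr at chr3:93319689-93319748 on the plus strand.
Map1b: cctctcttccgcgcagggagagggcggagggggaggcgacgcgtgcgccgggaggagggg
Ndrg4: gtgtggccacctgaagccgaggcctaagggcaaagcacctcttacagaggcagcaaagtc
Map1a: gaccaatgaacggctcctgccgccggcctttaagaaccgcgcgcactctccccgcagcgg
Krt2: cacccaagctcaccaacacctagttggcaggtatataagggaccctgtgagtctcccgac
Krt10: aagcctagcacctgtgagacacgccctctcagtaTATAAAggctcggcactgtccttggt
Hrnr: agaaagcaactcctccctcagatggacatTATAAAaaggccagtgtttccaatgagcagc

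The letters TATAAA began 26 bases before the start in Krt10 and 31 bases before it in Hrnr. They were not in the window of Krt2 or of the 3 DRG-restricted genes. Only these exact letters were searched, so their absence does not show that a TATA box is absent. Krt2, for example, holds the letters tatataag in its window. Over the 300 bases from 250 before the start to 50 after it, the dinucleotide CG occurred 23, 7 and 27 times in Map1b, Ndrg4 and Map1a, and 6, 2 and 1 times in Krt2, Krt10 and Hrnr. A promoter was at hand for 360 of 490 DRG-restricted genes (73.5%), 320 of 442 paw-restricted genes (72.4%) and 12181 of 15616 genes tested (78%). That is under 80% of each, so a comparison of the sets is void, and the following are counts for the promoters at hand. TATAAA stood in 4 of the 360 (1.11%), in 48 of the 320 (15%), in 292 of the 12181 (2.4%) and in 863 of all 32851 promoters listed (2.63%). The median number of CG was 16, 5 and 19 for the DRG-restricted genes, the paw-restricted genes and the genes tested.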

How the data were processed

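Polyadenylated RNA was sequenced as 50 bp single reads with a stranded kit, per the labels' protocols. Reads were demultiplexed with bcl2fastq, aligned to mm9 with TopHat2 and counted with HTSeq, per the submitters' processing notes; versions and counting options are not given in the sources used here. The authors deposited raw read counts per gene symbol, 22609 a library. HTSeq's summary lines were left out of library sizes and tests.

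edgeR 4.0.16 under R 4.3.3 was used on these counts: filterByExpr (smallest count 10, smallest total 15), TMM scaling, robust quasi-likelihood fit and F test on the 6 vehicle libraries, with Benjamini-Hochberg adjustment over the 15616 genes tested and a call under 0.05. The standard error is the size of the log2 fold change divided by the square root of F. CPM were taken from total gene counts. The method was tested on simulated data. Alternatives included DESeq2 1.42.0, other scalings, no filter, a fit on all 30 DRG and paw libraries, each library left out, a replicate block and a test against a fold of 2.

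The members and lists were chosen with earlier results of these data known. Of 557 list and pair genes, 553 matched a symbol, 14 of them through another symbol. Symbols of the tables matched RefSeq for 22370 of 22609. The genes named were drawn from, for each tissue, the 8 restricted genes with the most reads and the 8 with the largest fold changes; of each list, the 3 highest and 3 lowest called fold changes, up to 3 uncalled genes nearest 0 and each gene called against its list; all pair genes; and other list members with their values. Gene families by symbol, cord genes and runs were chosen after their values were seen. No genome of build mm9 was used here, so gene coordinates are given only for the RefSeq promoters. A few genes that are counted in the lists and pairs are not reported here by name.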

Additional observations from a re-analysis of the deposited data

How the results depend on the processing

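No named gene changed direction in any alternative, over 293 named genes and 3809 combinations of gene and alternative, and 36 of the genes crossed the threshold of 0.05 in at least 1 of them. Against a fold of 2 (glmTreat), the genes called higher in DRG numbered 3797 and the genes called higher in paw 3458. A gap of 8-fold gave 1002 DRG-restricted and 796 paw-restricted genes, a gap 4 times wider than 32-fold gave 195 and 260, and a lowest level of 50 CPM gave 321 and 268. All of these follow from the stricter or looser rule. Leaving out each library in turn gave 6277 to 6496 genes called in DRG and 5985 to 6292 in paw, with 496 to 519 DRG-restricted and 450 to 552 paw-restricted genes. A library left out can only loosen the level and the gap of the rule, so the rise in restricted genes follows from it. The replicate block gave 6484 genes called in DRG and 6305 in paw, with 490 and 442 restricted genes. It changes no CPM, so the level and the gap stayed as they were. Libraries of the same number deviated together with correlations of -0.082, 0.28 and 0.36 over 11567 genes, so the numbers were not taken to pair them. Cord replicates 2 and 3 of day 1 were left out for holding ganglion genes. Without them 27 DRG-restricted genes were 32 times lower in cord, against 0 with them. Upper quartile scaling moved the median of all genes to -0.11. Depth limits genes near the floor of 3 counts a library: fitted folds of genes with a few reads in a tissue, such as Th and Trpa1 in paw, depend on those few reads.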

Other observations

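DRG replicate 1 differed from the other vehicle DRG libraries in several genes, which were picked after their values were seen. Syt2, a synaptotagmin, had 35.6 CPM in it, against 219 and 213 CPM in replicates 2 and 3, and 112 to 245 CPM in the 12 PTX DRG libraries. Trpm8 had 9.34 CPM, against 37.7 and 30.8 CPM, and 14.9 to 45.3 CPM in PTX DRG. Oprd1 had 3.65 CPM, against 19.1 and 20.4 CPM, and 9.65 to 22.3 CPM in PTX DRG. The posterior Hox gene Hoxd10 ran the other way, with 24.1 CPM against 9 and 9.19 CPM, and 0.87 to 18.1 CPM in PTX DRG, and Hoxd11 had 4.08 CPM against 1.74 and 1.9 CPM. Gal had 17.4 CPM against 9.27 and 9.19 CPM, and 6.96 to 18.9 CPM in PTX DRG. The macrophage gene Emr1 (now Adgre1) was instead high in DRG replicate 3, with 31.9 CPM against 5.26 and 9.04 CPM in replicates 1 and 2.

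Paw-restricted genes varied more among the PTX paw libraries than DRG-restricted genes did among the PTX DRG libraries. The highest of 12 PTX libraries was over 2 times the lowest for 18 of 490 DRG-restricted genes in DRG (3.67%). In paw it was so for 382 of 442 paw-restricted genes (86.4%). The median ratio was 1.4 and 2.9. The share over all genes in the PTX libraries was not computed, so this spread cannot be called particular to the restricted genes.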
